A study of Mus musculus with 12 samples.

Results

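The genes of the bone-resorbing osteoclast and of the ligand and receptors that control its formation were followed through mouse RNA-seq libraries of brain and skull after photothrombosis (PT), an injury in which a laser lights a dye in the blood and closes the vessels of a small area. The genes were taken from a list of 10 symbols, chosen by name: Acp5, Ctsk, Atp6v0d2, Dcstamp, Ocstamp, Oscar, Nfatc1, Tnfsf11, Tnfrsf11a and Tnfrsf11b. Of these, 9 were among the 22317 genes of the count table, and Tnfsf11, the gene of the RANK ligand itself, was not analysed here. The data hold 12 libraries in 4 groups of 3. By their labels, SB2 and SB4 are brain cortex on day 2 and day 4 after PT of the skull, and BS2 and BS6 are interparietal bone on day 2 and day 6 after PT of the brain. Per the methods of the study, the mice were wild-type male BALB/c animals, 8 weeks old. The methods call the 3 libraries of a condition biological replicates, and neither they nor the labels say whether each came from 1 mouse or from pooled mice. Uninjured controls were not analysed here, and every comparison is between these groups.

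Osteoclasts are large cells with many nuclei that form by fusion of precursors of the monocyte and macrophage lineage. They seal off a patch of bone, acidify it and digest its collagen. Their formation needs RANK ligand (Tnfsf11), which cells of the osteoblast lineage display, and its receptor RANK (Tnfrsf11a) on the precursor. Osteoprotegerin (Tnfrsf11b) is a secreted decoy receptor that binds the ligand and keeps it from RANK. RANK signalling leads to NFATc1 (Nfatc1), the transcription factor that switches on the genes of fusion and resorption, together with partners such as PU.1, MITF and AP-1.

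The labelled tissue matched the marker genes in SB4 and BS6 but not in SB2 and BS2, and the groups are therefore called by their labels only. Summed over 9 osteoblast and osteocyte markers, the libraries labelled SB2 reached 68514 to 78212 CPM (counts scaled to library size with TMM factors) and those labelled BS6 reached 39349 to 159950 CPM. The same sum was 27.3 to 35.0 CPM in the libraries labelled SB4 and 31.0 to 53.6 CPM in those labelled BS2. Summed over 12 neuronal markers, SB4 and BS2 lay between 13314 and 14510 CPM, against 84.6 to 187 CPM in SB2 and BS6. SB2 and BS6 thus held bone transcripts, and SB4 and BS2 held brain transcripts, so that in both series of days the day and the tissue content cannot be told apart. Whether the labels SB2 and BS2 were exchanged was not tested. By their transcripts, SB4 against SB2 and BS6 against BS2 set brain beside bone, while BS6 against SB2 and SB4 against BS2 each compare libraries of like tissue content. Libraries held 14126082 to 18972654 counts in total, and a gene at 0 may have had up to 3 counts, which are 0.163 to 0.218 CPM. In bulk tissue, fewer osteoclasts and less RNA per osteoclast cannot be told apart.

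Upstream sequence in RefSeq was used for 5 of the 10 genes. Windows of 250 bases before the transcription start are shown for the genes of the resorption enzymes, the co-stimulatory receptor and the receptor RANK, so that their letters can be read beside the factors named above. The windows were searched on both strands for GGAAA (the core bound by NFAT factors), TGANTCA (AP-1), CATGTG (the E-box bound by MITF) and GAGGAA (the purine-rich core bound by PU.1). The NFAT and PU.1 letters can overlap. Capitals mark the matches, and each sequence is written 5′ to 3′ on the strand of the gene, with coordinates of GRCm38.p6.
Acp5, chr9:22130599-22130848, minus strand: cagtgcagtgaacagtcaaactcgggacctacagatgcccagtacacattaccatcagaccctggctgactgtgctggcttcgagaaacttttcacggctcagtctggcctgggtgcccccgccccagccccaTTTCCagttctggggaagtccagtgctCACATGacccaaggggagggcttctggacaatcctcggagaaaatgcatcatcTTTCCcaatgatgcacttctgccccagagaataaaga
Ctsk, chr3:95498960-95499209, plus strand: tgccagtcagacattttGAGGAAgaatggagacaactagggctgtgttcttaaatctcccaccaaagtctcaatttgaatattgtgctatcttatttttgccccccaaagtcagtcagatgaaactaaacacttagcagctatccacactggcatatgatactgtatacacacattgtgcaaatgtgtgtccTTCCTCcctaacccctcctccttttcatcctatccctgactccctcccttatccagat
Oscar, chr7:3616158-3616407, minus strand: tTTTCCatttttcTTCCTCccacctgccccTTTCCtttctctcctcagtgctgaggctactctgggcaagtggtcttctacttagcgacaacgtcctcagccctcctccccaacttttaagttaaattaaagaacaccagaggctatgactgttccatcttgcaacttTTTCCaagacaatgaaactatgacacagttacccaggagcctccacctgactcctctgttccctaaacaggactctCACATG
Tnfrsf11a, chr1:105780473-105780722, plus strand: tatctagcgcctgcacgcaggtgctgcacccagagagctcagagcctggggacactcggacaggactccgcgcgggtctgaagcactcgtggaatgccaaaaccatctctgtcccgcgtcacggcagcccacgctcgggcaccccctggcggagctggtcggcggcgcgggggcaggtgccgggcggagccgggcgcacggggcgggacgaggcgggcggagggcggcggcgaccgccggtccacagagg

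The Acp5 window is the one farthest downstream of 3 listed for the gene, and the one with the most matches: the other windows held 1 NFAT core each and none of the other letters. It held 2 NFAT cores, 117 and 37 bases before the start, and 1 MITF E-box 90 bases before it. The Oscar window held 3 NFAT cores, 1 PU.1 core and 1 MITF E-box that ends at the start site. The Ctsk window held 2 PU.1 cores and no NFAT core. The Tnfrsf11a window held none of these letters, and its GC content of 73.6% was the highest of the 7 windows. None of the 7 windows held the AP-1 letters. Among 32851 windows of all genes with the same length, 55.6% held the NFAT core, 23.3% the PU.1 core, 12.3% the MITF E-box and 6.75% the AP-1 letters, so that a match is common and is a description of the letters only.

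Per exon length, the 3 resorption genes had the highest group means of the list in SB2 and in BS6. Ctsk, which encodes cathepsin K, the protease that cuts bone collagen, lies on chromosome 3 (GRCm38, 95499256 to 95509362, plus strand). It was at 1371, 1409 and 1290 CPM in SB2 and at 1346, 392 and 1671 CPM in BS6. In SB4 it was at 4.26, 4.73 and 6.24 CPM, and in BS2 at 3.78, 4.03 and 4.58 CPM. All libraries of SB2 and BS6 lay far above all libraries of SB4 and BS2, and the second BS6 library was the lowest of the former.

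Acp5 encodes tartrate-resistant acid phosphatase, the enzyme by which osteoclasts are stained, and lies on chromosome 9 (22126727 to 22135711, minus strand). It shares 137 exon bases with an antisense transcript, 6530413G14Rik, from which its reads cannot be told apart where strand was not counted. Acp5 was at 503, 522 and 456 CPM in SB2 and at 429, 189 and 614 CPM in BS6. In SB4 it had 5, 1 and 3 counts per library and in BS2 0, 3 and 2 counts, so the libraries with brain transcripts were at or near the limit of detection. Atp6v0d2 on chromosome 4 (19876841 to 19922605, minus strand) encodes a subunit of the proton pump that acidifies the resorption pit and is also needed for fusion. Its level was 104, 107 and 107 CPM in SB2 and 107, 26.5 and 97.4 CPM in BS6. No count fell on Atp6v0d2 in any of the 6 libraries of SB4 and BS2. Both kinds of library were apart without overlap for this gene, as for all 9 genes of the list. Of all genes tested, 43.1% were lower in SB4 than in SB2 without overlap and 39.7% were higher in BS6 than in BS2.

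The fusion genes were lower per exon length than the resorption genes and were distributed in the same way. Dcstamp (chromosome 15, 39745930 to 39760938, plus strand) and Ocstamp (chromosome 2, 165393760 to 165400405, minus strand) encode membrane proteins through which precursors join into one cell. Dcstamp was at 21.8, 23.0 and 27.4 CPM in SB2 and at 17.8, 4.77 and 21.8 CPM in BS6. It had 2, 0 and 1 counts in SB4 and 0, 0 and 1 counts in BS2. Ocstamp was at 15.2, 23.9 and 18.3 CPM in SB2, at 27.8, 5.32 and 22.2 CPM in BS6 and at 0 counts in all libraries of SB4 and BS2. For both genes the second BS6 library was the lowest of the 6 libraries with bone transcripts.

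The regulators were not silent in the libraries with brain transcripts. Oscar (chromosome 7, 3609813 to 3616157, minus strand) encodes a collagen-binding receptor that adds the co-stimulatory signal osteoclast formation needs. It was at 21.5, 24.4 and 18.7 CPM in SB2 and at 34.6, 9.24 and 29.8 CPM in BS6. Its level was 4.89, 3.53 and 3.40 CPM in SB4 and 2.48, 3.07 and 2.83 CPM in BS2. Oscar was thus detected in every library. Nfatc1, on the minus strand of chromosome 18, was the most even member among the libraries with bone transcripts, at 141, 134 and 136 CPM in SB2 and 143, 80.2 and 136 CPM in BS6. It was at 4.19, 4.24 and 4.29 CPM in SB4 and at 4.31, 4.35 and 5.38 CPM in BS2, with the lowest BS2 library above the highest SB4 library.

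RANK and its decoy were also detected in every library. Tnfrsf11a (chromosome 1, 105780718 to 105847981, plus strand), the gene of RANK, was at 34.1, 30.7 and 40.2 CPM in SB2 and at 33.3, 12.6 and 28.1 CPM in BS6. It was at 7.38, 9.84 and 8.91 CPM in SB4 and at 8.49, 8.26 and 8.21 CPM in BS2, so that every library with brain transcripts held a measurable level. Tnfrsf11b (chromosome 15, 54250619 to 54278484, minus strand), the gene of osteoprotegerin, was at 50.9, 28.4 and 37.4 CPM in SB2, and at 15.1, 38.1 and 12.9 CPM in BS6. It was at 2.20, 3.42 and 2.23 CPM in SB4 and 2.30, 5.44 and 3.27 CPM in BS2. Tnfrsf11b was the single gene of the list for which the second BS6 library was the highest and not the lowest of its group.

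**Figure D1:**
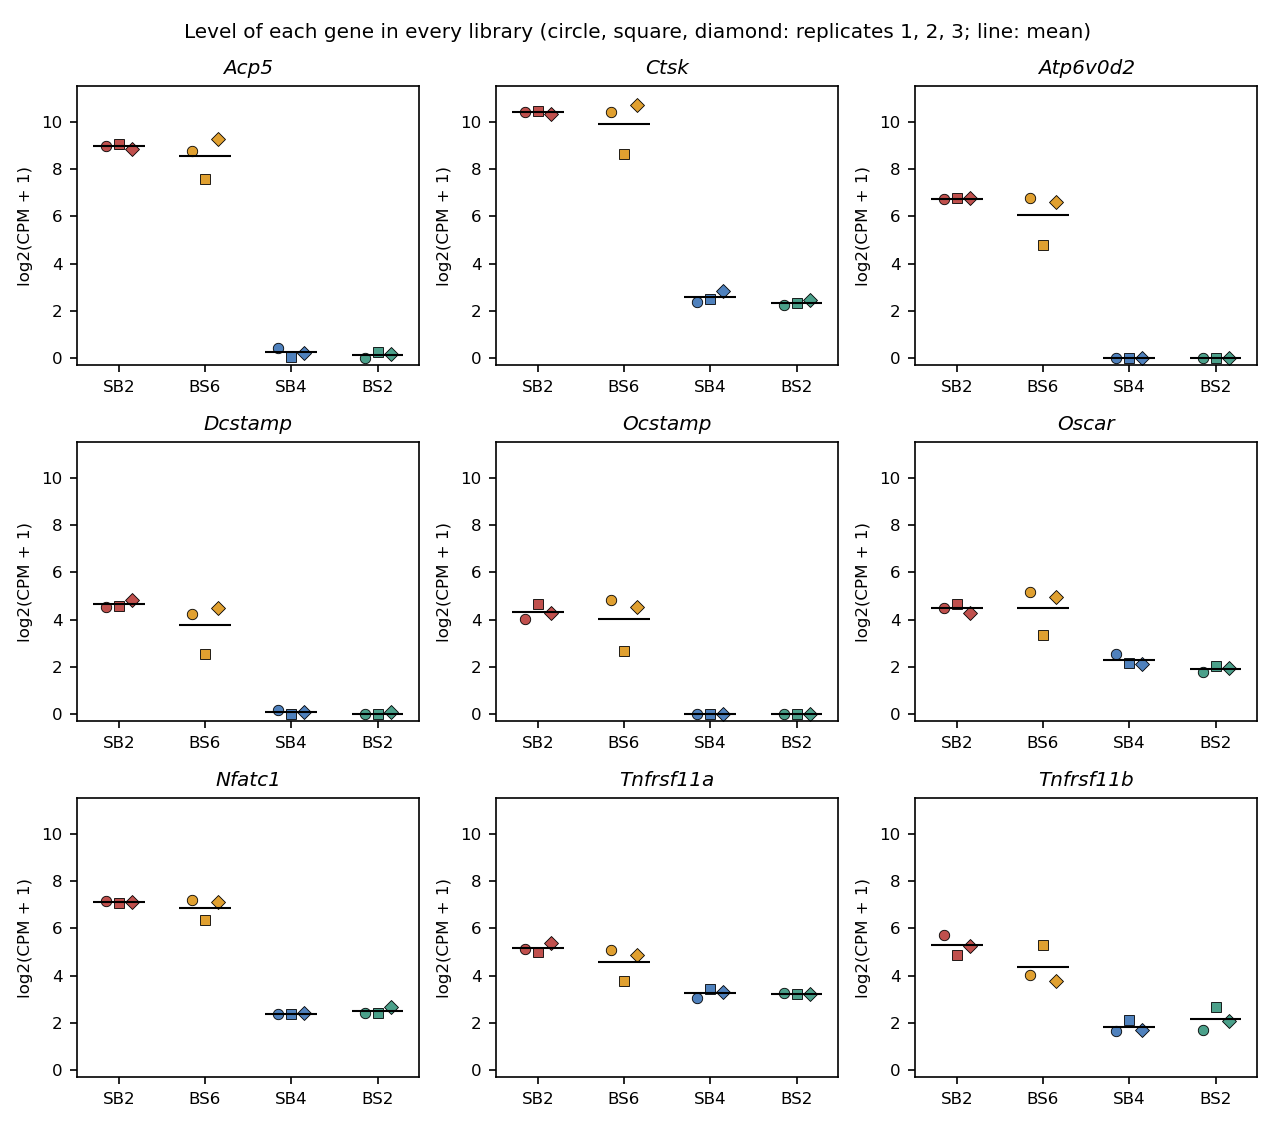
Level of the 9 genes as log2(CPM + 1) on the vertical axis, by group on the horizontal axis, with 1 point per library and a line at the group mean. SB2 and BS6 lie above SB4 and BS2 for every gene, and the second BS6 library (square) is the lowest BS6 library for 8 genes and the highest for Tnfrsf11b.

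Levels of different genes were compared per kilobase of exon. In SB2, Ctsk was first with 897 ± 40.1 CPM per kb (SD, n = 3), followed by Acp5 with 243 ± 16.8, Atp6v0d2 with 39.1 ± 0.65 and Nfatc1 with 18.3 ± 0.51 CPM per kb. Tnfrsf11b followed with 13.8 ± 4.02 and Oscar with 11.7 ± 1.54 CPM per kb. Dcstamp was at 9.03 ± 1.11, Tnfrsf11a at 5.85 ± 0.81 and Ocstamp at 5.23 ± 1.21 CPM per kb. The libraries of neighbours from Nfatc1 to Dcstamp overlapped in this order, as did those of Tnfrsf11a and Ocstamp. Ctsk stood at percentile 99.9 and Acp5 at percentile 99.5 of all detected genes on this scale, while RANK stood at percentile 67.6. In SB4 the order was another: Ctsk was at 3.36 ± 0.68, Oscar at 2.13 ± 0.45 and Tnfrsf11a at 1.46 ± 0.21 CPM per kb, ahead of Tnfrsf11b at 0.93 ± 0.25 and Nfatc1 at 0.57 ± 0.0070 CPM per kb.

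**Figure D2:**
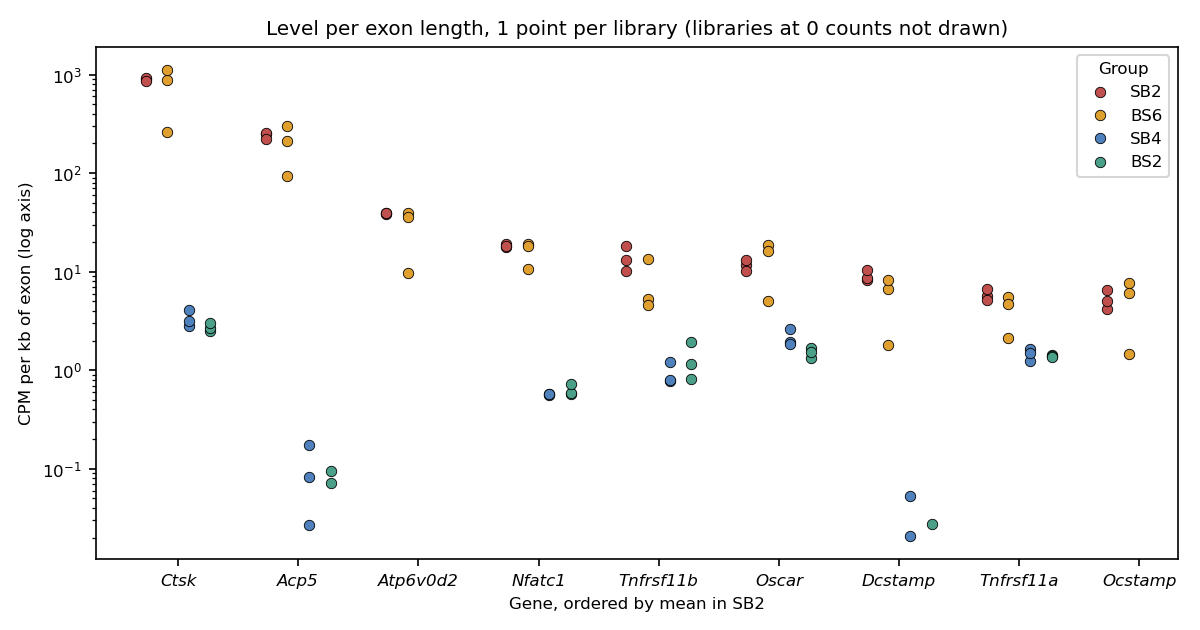
CPM per kb of exon on a log axis, 1 point per library, with genes on the horizontal axis ordered by their mean in SB2 and libraries with 0 counts not drawn. Ctsk and Acp5 have the highest levels in SB2 and BS6, and in SB4 and BS2 Acp5 and Dcstamp have the lowest levels drawn.

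Between days 2 and 4 in the libraries labelled brain cortex, all 9 genes were called lower in SB4 than in SB2, where a call needs a change of more than 1 on the log2 scale in either direction and a Benjamini-Hochberg adjusted p below 0.05 in the quasi-likelihood test of edgeR. Of 17293 genes tested, 28.6% were called lower and 56.4% in either direction. Acp5, Dcstamp, Atp6v0d2 and Ocstamp passed the filter only through SB2, so their direction was fixed beforehand. No gene of the list overlapped between these groups, as was the case for 43.1% of all genes in this direction. Ctsk fell by 8.05 on the log2 scale (SE 0.14, adjusted p = 1.65e-12 by edgeR). Nfatc1 fell by 5.01 (SE 0.08, adjusted p = 1.26e-12 by edgeR) and Tnfrsf11b by 3.87 (SE 0.28, adjusted p = 4.48e-06 by edgeR). The receptors at the cell surface fell least. Oscar fell by 2.46 (SE 0.17, adjusted p = 9.31e-08 by edgeR) and Tnfrsf11a by 2.00 (SE 0.14, adjusted p = 7.59e-08 by edgeR).

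For the genes near 0 the ratio of group levels is given in place of the fitted change, with intervals and limits that cover counting error only. Atp6v0d2 was at least 587-fold lower in SB4 and Ocstamp at least 106-fold lower, against a floor of 3 counts per library. Dcstamp had 2, 0 and 1 counts in SB4, below that floor in every library, so its ratio is not given. Acp5 was 2763-fold lower, with a 95% counting interval of 1456 to 6044, since SB4 held 9 counts in all. These sizes rest on few reads. The fitted change of Acp5 moved from -11.37 to -12.02 without the first SB4 library, and that of Dcstamp from -8.48 to -9.42 without the first and to -7.86 without the second SB4 library. With the genes at 0 held at their limits, the median change of the 9 genes was -6.72. This value is the limit of Ocstamp itself and no estimate, and the direction of the 4 genes near 0 was fixed by the filter. The median of all genes tested was -0.01. Tissue markers moved with the 9 genes: each of the 9 osteoblast and osteocyte markers in the table was called lower in SB4 and each of the 12 neuronal markers higher. Their part in the result was not tested. Of these bone markers 6 could be tested between SB4 and BS2, and of the neuronal markers 10 between BS6 and SB2. For the others the filter fixed the direction beforehand.

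Between days 2 and 6 in the libraries labelled interparietal bone, the direction was the opposite, and all 9 genes were called higher in BS6 than in BS2. Of 17311 genes tested, 29.0% were called higher and 55.5% in either direction. Acp5, Dcstamp, Atp6v0d2 and Ocstamp passed the filter only through BS6, so their direction was fixed beforehand. Again no gene of the list overlapped between the groups, which held in this direction for 39.7% of all genes. Ctsk rose by 8.14 on the log2 scale (SE 0.67, adjusted p = 7.14e-05 by edgeR), Nfatc1 by 4.72 (SE 0.27, adjusted p = 1.85e-05 by edgeR) and Oscar by 3.17 (SE 0.51, adjusted p = 0.00142 by edgeR). As in the other pair of groups, RANK had the smallest change. Tnfrsf11a rose by 1.60 (SE 0.35, adjusted p = 0.00563 by edgeR) and Tnfrsf11b by 2.63 (SE 0.54, adjusted p = 0.00442 by edgeR), or by 1.97 without the second BS6 library.

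Against the floor, Atp6v0d2 was at least 394-fold and Ocstamp at least 94.2-fold higher in BS6. Dcstamp had 0, 0 and 1 counts in BS2, below the floor in every library, so its ratio is not given. Acp5 had 0, 3 and 2 counts in BS2, none above the floor, so its ratio of 3768 (counting interval 1614 to 11605) is no exact size. Its fitted change was 11.82, or 11.19 without the first and 12.46 without the second BS2 library, and that of Dcstamp went from 8.99 to 10.89 without the third BS2 library. With Atp6v0d2 and Ocstamp held at their limits and Dcstamp at its fitted change, the median change was 6.56. This value is the limit of Ocstamp itself and no estimate, and the median of all genes tested was 0.02. The bone markers rose and the neuronal markers fell in this comparison (9 of 9 and 12 of 12 called), and their part in the result was not tested. The filter fixed the direction beforehand for all but 6 of these bone markers and 10 of these neuronal markers.

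The change between the early and the late day was also compared between both labelled tissues in 1 fit over the 12 libraries. For all 9 genes the difference of the changes had an adjusted p under 0.05 in edgeR's quasi-likelihood test, as had 84.9% of all 18068 genes tested, so this count is near the background. Its sign was fixed beforehand for Acp5, Dcstamp, Atp6v0d2 and Ocstamp, which passed the filter only through SB2 and BS6.

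The counts of Ctsk, Oscar, Nfatc1 and the receptors in the libraries with brain transcripts were set against Col1a1, the gene of the main bone collagen, which reached 2.55 to 4.01 CPM in SB4 and 3.89 to 9.41 CPM in BS2. Per 1000 counts of Col1a1, Ctsk had 39.1 counts in SB2 and 22.9 in BS6, but 1589 in SB4 and 572 in BS2. Tnfrsf11a had 1.01 counts per 1000 in SB2, and 2730 in SB4 and 1163 in BS2. Oscar had 0.62 in SB2, and 1196 in SB4 and 389 in BS2. Of 17292 genes other than Col1a1, 97.7% were higher in SB4 than in SB2 without overlap on this scale and 97.5% in BS2 than in SB2, so the ratios say nothing particular of these genes, and the source of their reads was not tested. Acp5, with 14.2 per 1000 in SB2, had 55.2 in SB4 and 15.1 in BS2, on 9 and 5 counts.

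The libraries with bone transcripts, labelled SB2 and BS6, were compared with each other next. None of the 9 genes was called, by edgeR or by DESeq2, and none had an unadjusted p under 0.05. Among all 16329 genes tested, 1.86% were called by edgeR and 6.46% by DESeq2, and 29.2% had an unadjusted p under 0.05. The changes from SB2 to BS6 ran from -0.80 for Tnfrsf11b to 0.20 for Oscar on the log2 scale, with a median of -0.25, against 0.02 for all genes. These values do not show that the levels were alike, since the intervals were wide. For Nfatc1, the best measured, the 95% interval was -0.70 to 0.34, and for Ocstamp it was -1.37 to 1.28. For Tnfrsf11b it was -1.91 to 0.31 (adjusted p = 0.292 by edgeR). Dcstamp was the 1 gene whose libraries did not overlap, lower in BS6 in all 3, at a change of -0.69 (interval -1.89 to 0.51, adjusted p = 0.393 by edgeR), and of all genes tested 20.3% were lower in BS6 without overlap and 38.1% did not overlap in either direction.

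The second BS6 library stood apart for most of the list. Beside the mean of the other BS6 libraries, it was 4.70-fold lower for Ocstamp, 4.15-fold for Dcstamp, 3.86-fold for Atp6v0d2, 3.85-fold for Ctsk and 3.48-fold for Oscar. Acp5 was 2.76-fold, Tnfrsf11a 2.43-fold and Nfatc1 1.74-fold lower. Tnfrsf11b went the other way and was 2.73 times as high. The same library stood apart in other cell markers. Its summed osteoblast and osteocyte markers were 3.45-fold lower and its fibroblast markers 5.66-fold lower than in the other BS6 libraries, while its neutrophil lineage markers reached 25295 CPM against a mean of 2446 CPM. Its monocyte and macrophage markers were 1.52 times, its erythroid markers 1.55 times and its astrocyte markers 3.08 times as high. The part of these in the result was not tested.

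**Figure D3:**
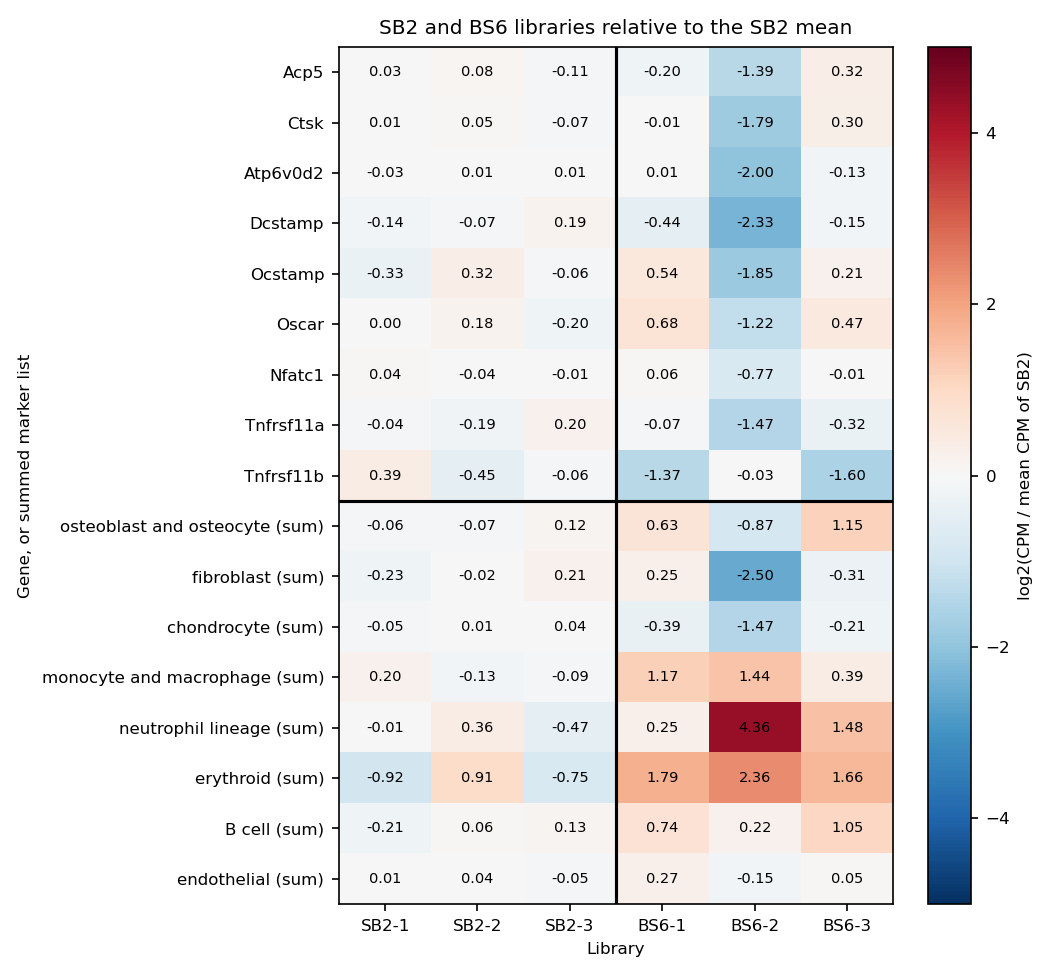
Each cell gives the log2 ratio of the CPM in 1 library to the mean of SB2, for the 9 genes (above the line) and for summed marker lists (below it). In the second BS6 library 8 genes are between -0.77 and -2.33 and Tnfrsf11b is at -0.03, while Tnfrsf11b is at -1.37 and -1.60 in the other BS6 libraries, and the neutrophil lineage sum of the second BS6 library is at 4.36.

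The second BS6 library was singled out after its values were seen, so the values without it are a description and no independent check. Without it, Tnfrsf11b was called lower in BS6 than in SB2, by 1.47 on the log2 scale (SE 0.27, interval -2.14 to -0.80, adjusted p = 0.0172 by edgeR). Of all genes tested in that fit, 1.63% were called lower and 4.02% in either direction. Cell markers were also called in it. Of the 9 osteoblast and osteocyte markers 3 were higher and 1 lower in BS6. Of the 4 chondrocyte markers 1 was higher and 1 lower, and of the 6 B cell markers 4 were higher. In each of the monocyte and macrophage, neutrophil lineage, T cell and erythroid lists 1 marker was higher. In the neuron list 1 marker was lower and in the astrocyte list 2. Their part in the result was not tested. Osteoprotegerin was at 15.1 and 12.9 CPM in these BS6 libraries, below the lowest SB2 library at 28.4 CPM. Oscar was higher by 0.59 (interval 0.28 to 0.90, adjusted p = 0.0201 by edgeR), which is under the fold that a call needs. For the resorption genes, which were low in the library left out, the change was 0.16 for Ctsk (interval -0.13 to 0.45) and 0.09 for Acp5 (interval -0.27 to 0.45). The change of Atp6v0d2 was -0.05 (interval -0.23 to 0.14). Nfatc1 was at 0.04 (interval -0.14 to 0.22) and Tnfrsf11a at -0.18 (interval -0.49 to 0.13). In this fit every interval of these 5 genes lay within 1 log2 unit of 0.

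**Figure D4:**
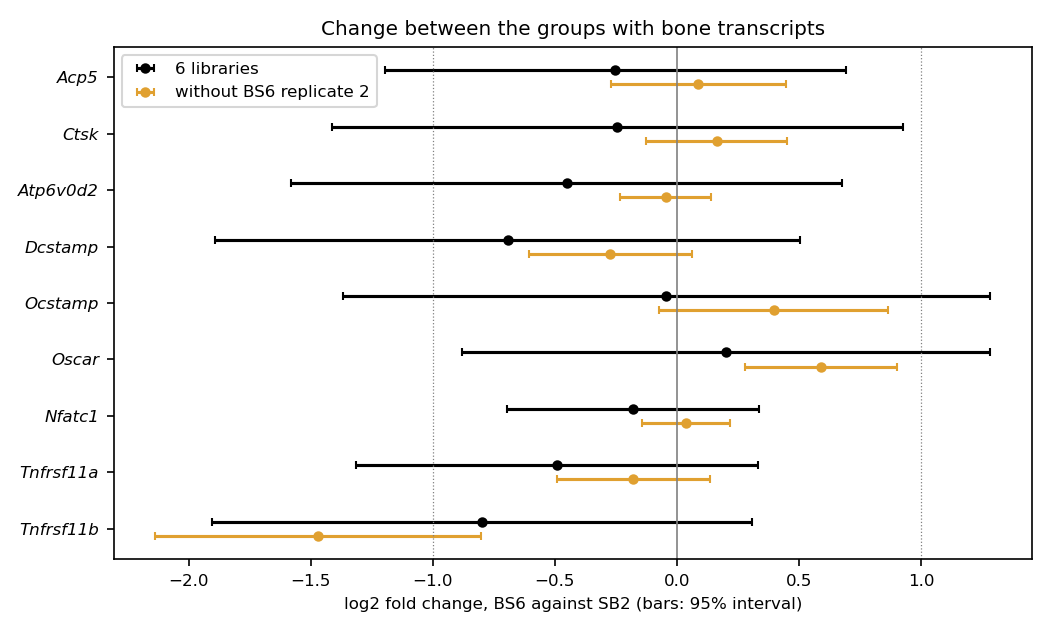
Log2 fold change of BS6 against SB2 on the horizontal axis with its 95% interval, from all 6 libraries (black) and without the second BS6 library (orange), for each of the 9 genes. All black intervals contain 0, and without the second BS6 library the interval of Tnfrsf11b runs from -2.14 to -0.80.

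Ratios within a library need no scaling between libraries. The resorption enzymes kept a narrow ratio in SB2, where Acp5 had 36.7, 37.1 and 35.3 counts per 100 counts of Ctsk. In BS6 the ratio was 31.8, 48.2 and 36.8, so that the second library, with both genes low, had relatively more Acp5. Against Col1a1, Ctsk had 40.6, 42.0 and 35.2 counts per 1000 in SB2 and 24.9, 21.7 and 21.8 in BS6. On this ratio of Ctsk the second BS6 library was close to the third, and all BS6 libraries lay below all SB2 libraries. With another denominator it stood apart: per 100 counts of Csf1r, the gene of the M-CSF receptor, Ctsk had 630.4, 624 and 631 counts in SB2 and 424, 203 and 614 in BS6. Acp5 had 14.9, 15.6 and 12.4 counts per 1000 of Col1a1 in SB2 and 7.93, 10.5 and 8.02 in BS6, also without overlap. The same held for Atp6v0d2, Dcstamp and Tnfrsf11a, which makes 5 of the 9 genes, all of them divided by the same Col1a1 counts. The others overlapped, among them Nfatc1 and Tnfrsf11b, which reached 4.45 and 2.11 per 1000 in the second BS6 library, above every other BS6 and SB2 library. On this scale, 5.91% of the 16328 genes tested other than Col1a1 were lower in BS6 without overlap. Col1a1 itself was at 33530 to 36677 CPM in SB2 and at 54059, 18025 and 76624 CPM in BS6. No test was made of these ratios.

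The receptor and its decoy were set against each other in the same way. Tnfrsf11a had 67.0, 108 and 108 counts per 100 counts of Tnfrsf11b in SB2. In BS6 it had 221, 33.2 and 219. The second BS6 library was below, and the other BS6 libraries above, every SB2 library, so that the groups overlapped. The ratio of the ligand to its decoy, by which the drive to form osteoclasts is usually described, was not computed because Tnfsf11 was not analysed here.

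Between the libraries with brain transcripts, SB4 and BS2, the 5 genes with enough counts were tested and none was called by edgeR or by DESeq2, with 0.147% of all 16278 genes called by edgeR and 0.252% by DESeq2. Oscar alone had an unadjusted p under 0.05, as had 11.9% of all genes. It was higher in SB4 by 0.47 on the log2 scale (interval 0.01 to 0.93, adjusted p = 0.413 by edgeR), and its libraries did not overlap, as was the case for 16.5% of all genes in either direction. Nfatc1 was lower in SB4 in all 3 libraries by 0.15 (interval -0.54 to 0.23), also without overlap. Ctsk changed by 0.29 (interval -0.11 to 0.69), Tnfrsf11a by 0.05 (interval -0.24 to 0.35) and Tnfrsf11b by -0.49 (interval -1.11 to 0.13). Acp5, Dcstamp, Atp6v0d2 and Ocstamp had too few counts in both groups to be tested.

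Genes that act beside the list were taken from 9 lists of the pathway. Their counts stand beside 56.4% of all genes called in SB4 against SB2 (28.6% lower) and 55.5% in BS6 against BS2 (29.0% higher). Of the 19 signal transducers of RANK, 7 were called lower and 2 higher in SB4 than in SB2, and 9 were called higher and 2 lower in BS6 than in BS2. Traf6, the adaptor that RANK needs in osteoclasts, was at 39.5 ± 0.55 CPM in SB2 and 23.0 ± 0.48 CPM in SB4 (SD, n = 3), a change of -0.77 (adjusted p = 2.79e-06 by edgeR) that is under the fold of a call. Of the 7 osteoclast transcription factors tested, 3 were lower in SB4 and 4 higher in BS6. Spi1, the gene of PU.1, fell by 4.88 to SB4 (adjusted p = 3.46e-10 by edgeR) and rose by 6.36 to BS6 (adjusted p = 0.000227 by edgeR). In BS6 its libraries spanned 75.9 to 287 CPM around a mean of 151 CPM. The 9 monocyte and macrophage markers and the 8 neutrophil lineage markers tested moved with Spi1. All were called lower in SB4 and higher in BS6, and their part in the result was not tested. Between SB4 and BS2 only 1 of the 8 neutrophil lineage markers and 8 of the 9 monocyte and macrophage markers could be tested. The others passed the filter only through SB2 or BS6, so their direction was fixed beforehand. The repressors of osteoclast genes had 3 of 6 lower in SB4 and 4 of 6 higher in BS6.

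Genes of the ITAM co-stimulation, a signal that Oscar shares with other receptors, were counted next. Of 8 genes of this list, 7 were lower in SB4 and 7 higher in BS6, with medians of -3.69 and 4.61, while Blnk was called in neither comparison. The summed list reached 705 CPM in the second BS6 library, 2.01 times the mean of the other BS6 libraries, whereas Oscar was 3.48-fold lower there. Without that library 8 of the 8 were called higher in BS6 than in BS2. The 9 monocyte and macrophage markers moved with these genes, all called lower in SB4 (median -4.40) and higher in BS6 (median 4.44). So did the 8 neutrophil lineage markers tested, with medians of -7.79 and 12.6. Only 1 of these 8, and 8 of the 9 monocyte and macrophage markers, could be tested between SB4 and BS2. The others passed the filter only through SB2 or BS6, so their direction was fixed beforehand. Beside the mean of the other BS6 libraries, the second held 10.3 times the neutrophil lineage sum and 1.52 times the monocyte and macrophage sum. The part of both marker lists in the result was not tested. Tyrobp, an adaptor chain of myeloid receptors, was at 63.3 ± 5.22 CPM in SB2 and 4.01 ± 0.71 CPM in SB4. Of the 10 fusion and attachment genes, 5 were lower and 1 higher in SB4, and 5 were higher in BS6, beside the same shares of all genes (56.4% and 55.5% called). Itgb3, the integrin chain by which osteoclasts hold to bone, was at 132 ± 9.22 CPM in SB2 and 137 ± 23.9 CPM in BS6, and at 7.16 ± 0.74 CPM in SB4. Of the 12 acid secretion and resorption genes, 5 were lower and 3 higher in SB4, and 6 were higher and 2 lower in BS6.

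Resorption genes outside the 9 did not all follow the second BS6 library. Mmp9, the gene of a gelatinase, was at 925 ± 49.6 CPM in SB2 and 894 ± 8.10 CPM in BS6, where all 3 libraries lay between 884 and 899 CPM. Tcirg1, a subunit of the osteoclast proton pump, was at 283 ± 15.8 CPM in SB2 and 360 ± 8.17 CPM in BS6, a change of 0.37 (adjusted p = 0.0869 by edgeR). These genes were even over the BS6 libraries, between which Ctsk spanned 392 to 1671 CPM. Others of the 12 acid secretion and resorption genes were not: Mmp14, a membrane-bound metalloproteinase, spanned 240 to 1191 CPM and Car2, a carbonic anhydrase, 28.2 to 143 CPM in BS6. The summed list was at 2262 CPM in the second BS6 library, against a mean of 3216 CPM in the other BS6 libraries. Mmp9 is also a gene of neutrophil granules, the neutrophil lineage sum was highest in the second BS6 library, and its part in the result was not tested.

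The signals upstream of the osteoclast also moved between both kinds of library. All 13 genes of the list of inducers of RANK ligand and their receptors were lower in SB4 than in SB2, with a median of -4.16. All 11 that could be tested were higher in BS6 than in BS2, with a median of 4.06. Of the 13, only 7 had enough counts to be tested between SB4 and BS2. The others passed the filter only through SB2 or BS6, so their direction was fixed beforehand. Of all genes, 28.6% were called lower in the first comparison and 29.0% higher in the second. Cell markers moved with them: the 6 fibroblast markers (median -9.84), the 9 osteoblast and osteocyte markers that were tested, of 12 listed, and the 9 monocyte and macrophage markers were all called lower in SB4 and higher in BS6, and their part in the result was not tested. The filter fixed the direction beforehand for all but 6 of these osteoblast and osteocyte markers and 8 of these monocyte and macrophage markers. The M-CSF axis, the growth factor supply of the precursor, was split. Csf1 fell by 3.35 (adjusted p = 8.21e-10 by edgeR) and its receptor gene Csf1r by 1.56 (adjusted p = 1.31e-09 by edgeR) in SB4, while Il34, which encodes the other ligand of that receptor, was called higher by 1.01. In BS6 against BS2 all 3 were called with the opposite signs: Csf1 at 2.80, Csf1r at 1.94 and Il34 at -1.09. Of the 2 secreted inhibitors tested, 1 was lower in SB4, and in BS6 1 was higher and 1 lower.

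Between SB2 and BS6, 2 of the 80 genes tested in the 9 lists were called by edgeR and 8 by DESeq2, and 26 had an unadjusted p under 0.05. Of all genes, 1.86% were called by edgeR and 6.46% by DESeq2, and 29.2% had an unadjusted p under 0.05. Irf8, a repressor of osteoclast genes that also drives monocyte identity, was at 21.9, 23.8 and 17.9 CPM in SB2 and at 48.9, 81.8 and 48.7 CPM in BS6. It was higher in every BS6 library than in any SB2 library, and 38.1% of all genes did not overlap between these groups in either direction. Irf8 was higher by 1.52 on the log2 scale (SE 0.25, adjusted p = 0.0341 by edgeR), and by 1.21 without the second BS6 library (adjusted p = 0.00152 by edgeR). The monocyte and macrophage marker sum moved with it, from 961 to 1209 CPM in SB2 to 1378 to 2859 CPM in BS6, and its part in the result was not tested.

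Il6, the gene of a cytokine that induces RANK ligand on osteoblasts, was at 23.2, 3.20 and 10.1 CPM in SB2 and at 0.78, 0.42 and 0.70 CPM in BS6. It was lower in every BS6 library than in any SB2 library, as were 20.3% of all genes tested. Its change was -4.24 (SE 0.80, adjusted p = 0.0407 by edgeR). The spread within SB2 was large, and without the first SB2 library the change was -3.37. When single libraries were left out, Il6 was called in none of the 6 fits and Irf8 in 1 of 6, the one without the second BS6 library, and both calls were lost with the replicate number as a block. Over the alternatives run, the adjusted p reached 0.182 for Irf8 and 0.181 for Il6. Between SB4 and BS2, none of the 74 list genes tested was called by edgeR or by DESeq2, and 10 had an unadjusted p under 0.05, beside 11.9% of all genes.

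**Figure D5:**
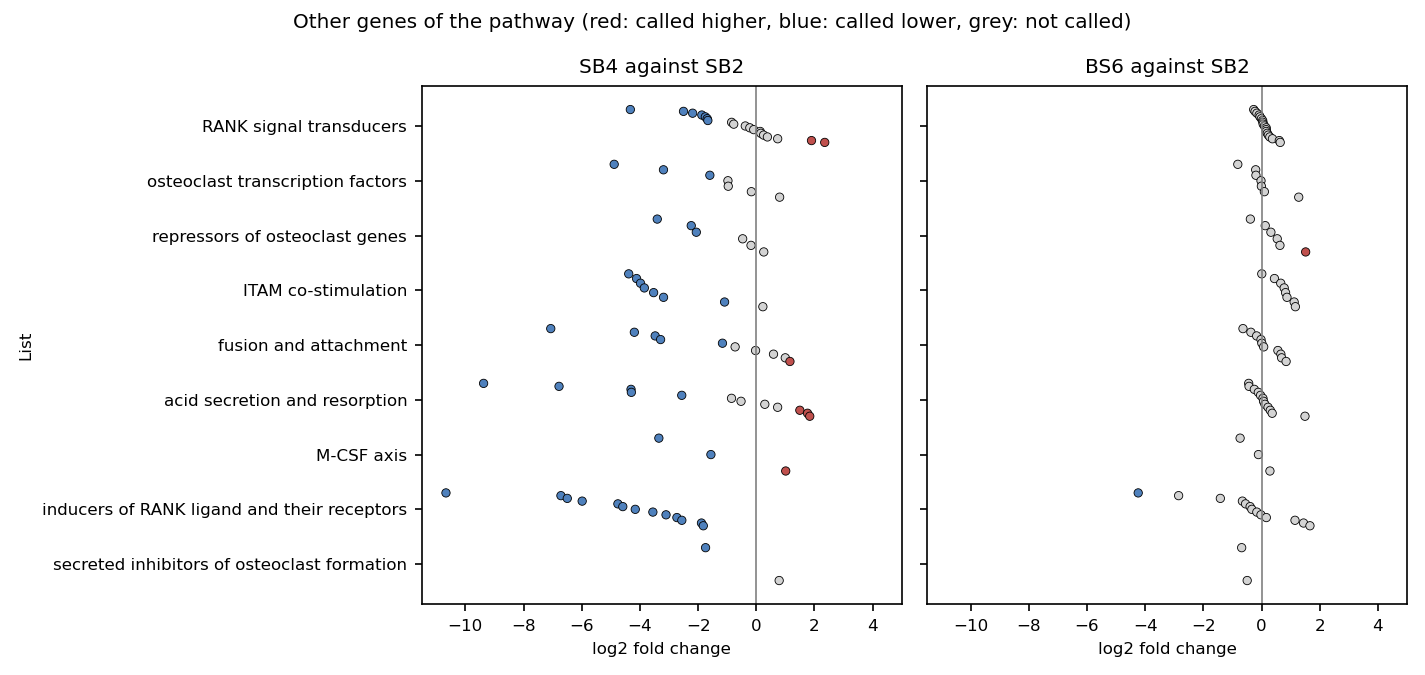
Log2 fold change (horizontal axes) of each tested gene of the 9 pathway lists in SB4 against SB2 (left) and in BS6 against SB2 (right), coloured by whether it was called. All 13 inducers of RANK ligand and their receptors are called lower in SB4. Only 7 of them had enough counts to be tested between SB4 and BS2, so the direction of the others was fixed. In BS6 against SB2 only Irf8 (higher) and Il6 (lower) are called.

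Genes with a pattern like Acp5 and like Tnfrsf11b were looked up among the 14072 genes that averaged 5 CPM or more in any group, by the root mean square difference of log2(CPM + 1) over the 12 libraries after centring each gene on its mean. The closest to Acp5 were H19 at 0.20, Mmp2 at 0.28 and Bgn at 0.36, and Ctsk stood at rank 8 with 0.47. The closest to Tnfrsf11b were Trip13 at 0.28, Mcm5 at 0.30 and Kifc1 at 0.30. Tnfrsf11a had rank 2322 beside Tnfrsf11b, at 0.91. The step between bone-rich and brain-rich libraries enters all these distances. Its part in them was not tested, and they are a description.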

How the data were processed

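RNA-seq of poly(A) RNA from 12 libraries was used. Reads were trimmed by the authors with fastp and aligned to mm10 by HISAT2 2.1.0, and the authors deposited unnormalized counts for each gene symbol. The counting program, annotation and use of strand are not given in the sources used here, nor whether ComBat_seq preceded the deposited counts. Of 22317 symbols, 22022 were found in GENCODE M21, which gave coordinates and exon lengths. All 10 genes and all lists were chosen with earlier results of these data known.

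Counts were compared in fits of 2 groups of 3 libraries by the robust quasi-likelihood test of edgeR 4.0.16 (R 4.3.3) after TMM scaling, on genes that passed filterByExpr (minimum count 10). P-values were adjusted over all genes tested by the Benjamini-Hochberg method. Calls needed an adjusted p below 0.05 and a log2 change beyond 1 in size. The difference of both changes was a contrast over 12 libraries. CPM used TMM factors over the 12 libraries. Total counts were 14126082 to 18972654 per library. A group at 0 was set to 3 counts per library. Intervals of count ratios are exact 95% intervals and, like that limit, cover counting error only. Any 2 libraries of a group differed by more than sampling noise. Upstream windows come from RefSeq on GRCm38.p6.

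The text names all genes of the list, in BS6 against SB2 the called gene of each pathway list with the largest rise and fall at 5 CPM or more, Traf6, Spi1, Tyrobp, Itgb3, Mmp9, Tcirg1, Csf1 and Csf1r as examples, and 3 pattern neighbours per gene. Il34, Blnk, Mmp14 and Car2 were named after their values were seen. Alternatives were DESeq2 1.42.0, RLE, upper-quartile and total-count scaling, other filters, a fit over 12 libraries, a replicate block and leaving out each library. The fits were tested on simulated data. At an adjusted p below 0.05, 76.8% of 2-fold changes were recovered for SB4 against SB2 but 18.2% for BS6 against SB2. For 4-fold changes the shares were 94.9% and 78%.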

Additional observations from a re-analysis of the deposited data

Results flagged for a closer look

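For all 9 genes, the late minus early difference was not the same in the libraries labelled brain cortex as in those labelled interparietal bone, in a test of that contrast itself (quasi-likelihood test of edgeR, Benjamini-Hochberg adjusted, 12 libraries). The change over the libraries labelled brain cortex minus that over the libraries labelled interparietal bone, on the log2 scale, was -16.20 for Ctsk (SE 0.75), -9.74 for Nfatc1 (SE 0.30), -6.52 for Tnfrsf11b (SE 0.67), -5.63 for Oscar (SE 0.58) and -3.61 for Tnfrsf11a (SE 0.40). The genes at or near 0 counts in SB4 and BS2 gave -27.04 for Atp6v0d2, -23.19 for Acp5, -22.50 for Ocstamp and -17.49 for Dcstamp, fitted values that depend on the prior count and are no measure of size. Acp5, Dcstamp, Atp6v0d2 and Ocstamp passed the filter only through SB2 and BS6, so the sign of their contrast was fixed beforehand. The largest adjusted p of the 9 by edgeR was 1.78e-05, for Ocstamp. Among the genes whose sign was not fixed it was 5.41e-06, for Tnfrsf11a. Without 1 library, values moved by over 1.5 times for 3 genes: Acp5 to -22.57 and -23.84 without the first and second BS2 library and to -23.86 without the first SB4 library, Dcstamp to -19.38 without the third BS2 library and to -18.43 and -16.87 without the first and second SB4 library, and Tnfrsf11b to -5.85 without the second BS6 library. Since SB2 and BS6 hold bone transcripts and SB4 and BS2 brain transcripts, this difference and the tissue content cannot be told apart, and 84.9% of all genes tested had it.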

How the results depend on the processing

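The 9 calls in SB4 against SB2, in BS6 against BS2 and in the contrast of both changes held under DESeq2 (where run), other scalings, no filter, the 12-library fit and each left-out library. With at least 10 counts in every library 5 genes remained to be tested in each, and all 5 were called. In BS6 against SB2, 0 to 1 of the 9 genes was called when single libraries were left out, 1 without the second BS6 library. Over the same left-out libraries the change of Acp5 ran from -0.663 to 0.0879, of Ctsk from -0.631 to 0.162, of Ocstamp from -0.457 to 0.396 and of Nfatc1 from -0.320 to 0.0366, each with a reversed sign without the second BS6 library. Ocstamp also reversed, to 0.14, without the second SB2 library. Oscar ran from -0.121 without the first BS6 library to 0.590, and Tnfrsf11a in SB4 against BS2 from -0.0337 without the second SB4 library to 0.144. Irf8 was called in 8 of 14 and Il6 in 6 of 13 alternatives. The deviations of samples with the same replicate number correlated at -0.12 to 0.09, and those with different numbers at -0.16 to 0.21. With 3 libraries per group these values cannot decide whether the numbers pair libraries. With the replicate block, 9, 9, 0, 0 and 9 genes were called, as without it, while the call of all genes in BS6 against SB2 went from 303 to 0. That total was 1055 with DESeq2, 1273 in the 12-library fit and 667 without the second BS6 library, and it was 0 to 34 without any other library. In SB4 against BS2 it was 24, with 41 under DESeq2, 50 without a filter, 61 under the block, 8 in the 12-library fit and 18 to 85 with single libraries left out. The cause was not tested. The ratio of Tnfsf11 to Tnfrsf11b and its alternatives were not run. Depth limits Acp5, Dcstamp, Atp6v0d2 and Ocstamp in SB4 and BS2, where no level below 3 counts can be told from 0.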
